A study of Mus musculus with 10 samples.

Results

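The genes described here are 10 members or partners of the Notch pathway and of basal cell control in the mouse olfactory epithelium, chosen by name: the receptors Notch1, Notch2 and Notch3, the ligands Jag1, Jag2 and Dll1, the target genes Hes1, Hey1 and Heyl, and the basal cell transcription factor Trp63. All 10 were found among the 24421 genes listed in the table that the authors deposited, and all 10 were among the 16050 genes with an adjusted p-value, which are called tested here. Poly(A)-selected RNA was sequenced from the olfactory epithelium of untreated C57BL/6 mice aged 6 months, with 4 libraries labelled Apoe3 and 6 labelled Apoe4. The series title names these as human alleles of Apoe, which codes for the lipid-carrying apolipoprotein E. The labels do not say how the alleles were placed in the mouse, and give the sex of no animal.

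Notch receptors are proteins of the cell surface that are activated by ligands on a neighbouring cell. Ligand binding lets the protease ADAM10 and then the gamma-secretase complex cut the receptor, and the freed intracellular part joins RBPJ and MAML proteins in the nucleus to turn on genes of the Hes and Hey families, which are repressors of other transcription factors. In the olfactory epithelium, p63, the product of Trp63, holds horizontal basal cells in their resting state as reserve stem cells, Notch signalling helps to keep p63 on in these cells, and Hes1 is found in sustentacular (supporting) cells, where it is known to oppose neuronal fate.

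No member passed an adjusted p of 0.05 in the comparison of Apoe4 with Apoe3. Hes1 had the largest difference of the 10, with an estimated -18.0% in Apoe4, and Hey1 followed at -9.64%. These percentages rest on undoing the shrinkage of the deposited folds, a step with more than one solution, as given with the ligands. The 3 receptors, the 3 ligands, Heyl and Trp63 lay between -7.77% and 8.81%, each with a 95% interval that includes 0. Over all genes tested, 125 of 16050 passed (0.779%), so a count of 0 of 10 is near that background. At an unadjusted p under 0.05 in the authors' DESeq2 test, 2 of the 10 stood out, Hes1 and Hey1, both lower, where the same mark was reached by 10.3% of all genes in either direction, by 5.76% as lower and by 4.54% as higher.

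The authors deposited 1 row of statistics for each gene, so levels are means over all 10 libraries and no values of single libraries are given. Reads per library were estimated from genes with a single read at about 14900000 to 19900000 in Apoe3 and 15500000 to 20100000 in Apoe4. By the signs of these genes, a positive fold is higher in Apoe4. The groups also differed in sex-linked genes. Xist, which is transcribed from the inactive X chromosome of female cells, stood at a log2 fold change of 6.41 there, per the authors' deposited table, and the Y-linked genes Ddx3y, Eif2s3y, Kdm5d and Uty lay between -3.72 and -2.80. Genotype and this sex-linked difference cannot be told apart in the values below. The design text calls the libraries biological replicates and names no animals, so the p-values measure the spread between these libraries.

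Promoter sequences are shown for the letters that factors of the pathway are known to bind, with no measurement of binding. RefSeq windows of GRCm38.p6 were at hand for 6 members (Notch1, Notch2, Notch3, Jag1, Jag2 and Dll1, with 7 start sites), and not for Hes1, Hey1, Heyl and Trp63. The core letters bound by RBPJ (TGGGAA, searched on both strands in the 250 bases before each start) occur in 21.6% of all 32851 windows of that length and in 0 of the 7 windows of members. Beside the members, Hes5, Hey2, Hes6 and Nrarp were looked up. No match is recorded for Hes6 or Nrarp, and whether windows were at hand for them is not given. The window of Hey2 holds the RBPJ letters 207 bases before the start. The window of Hes5 holds them at 2 places, 226 and 82 bases before the start and on opposite strands. It is shown as the target gene in which both lie close to the start, with the letters in capitals (chr4:154960673-154960922, plus strand).

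Hes5: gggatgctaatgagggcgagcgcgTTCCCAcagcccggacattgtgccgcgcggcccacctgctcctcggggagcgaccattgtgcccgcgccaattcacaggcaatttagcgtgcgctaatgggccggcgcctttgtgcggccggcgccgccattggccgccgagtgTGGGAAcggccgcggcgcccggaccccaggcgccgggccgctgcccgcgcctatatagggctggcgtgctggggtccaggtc

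HES and HEY proteins bind other letters, of which CACGCG was searched on both strands and occurs in 7.62% of all windows. This motif and the RBPJ core are different letters and do not contain one another. It was found in 3 of the 7 windows of members, those of Jag1, Notch2 and the upstream start of Dll1. The stretches of the ligands Jag1 (chr2:137116671-137116770, minus strand) and Dll1 (chr17:15376971-15377030, minus strand) are shown 5′ to 3′ with these letters in capitals, because HES proteins are known to act on genes of Notch ligands. An effect of Hes1 on these ligands was not tested. A match is a description of the letters and not of binding.

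Jag1: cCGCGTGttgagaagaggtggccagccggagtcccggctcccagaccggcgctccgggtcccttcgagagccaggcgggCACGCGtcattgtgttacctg

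Dll1: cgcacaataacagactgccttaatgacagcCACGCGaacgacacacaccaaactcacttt

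Every member was detected, at means from 119 normalized counts for Dll1 to 2599 for Hey1. Levels of different genes are compared here only per length, as mean normalized counts per kilobase of the longest transcript of each gene. On that scale Hey1 was the highest, at 1073 per kilobase and above 93.8% of the tested genes, and Dll1 the lowest, at 33.1 and above 23.8% of them. Hes1 at 460 and Jag2 at 454 per kilobase were next to Hey1 and lay close together. Jag1 followed at 248, Notch3 at 182 and Notch2 at 149. Heyl at 111, Trp63 at 101 and Notch1 at 88.7 per kilobase formed the lower part above Dll1. The spread of levels over libraries is not known, so neighbours in this order are not shown to differ.

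Among the ligands, Jag2 stood 13.7 times above Dll1 per kilobase and 1.83 times above Jag1. The distance to Jag1 depends on the length used, at 3.20 times with the median protein-coding transcript and 7.98 times with the median of all transcripts. Jag ligands and Dll1 bind the same receptors, and which of them dominates differs between tissues. Of the receptors, Notch3 was 2.05 times and Notch2 1.68 times above Notch1 per kilobase. The order of the receptors depends on it too, since with the median protein-coding transcript Notch2 was at 149 and Notch1 at 168. With that length, which was chosen after seeing the data, Hey1 was still the highest and Dll1 the lowest, while Jag2 at 792 passed Hes1 at 460 and Notch3 at 334 passed Jag1 at 248. With the median of all transcripts, Jag2 at 3134 was the highest and Trp63 at 148 the lowest.

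**Figure D1:**
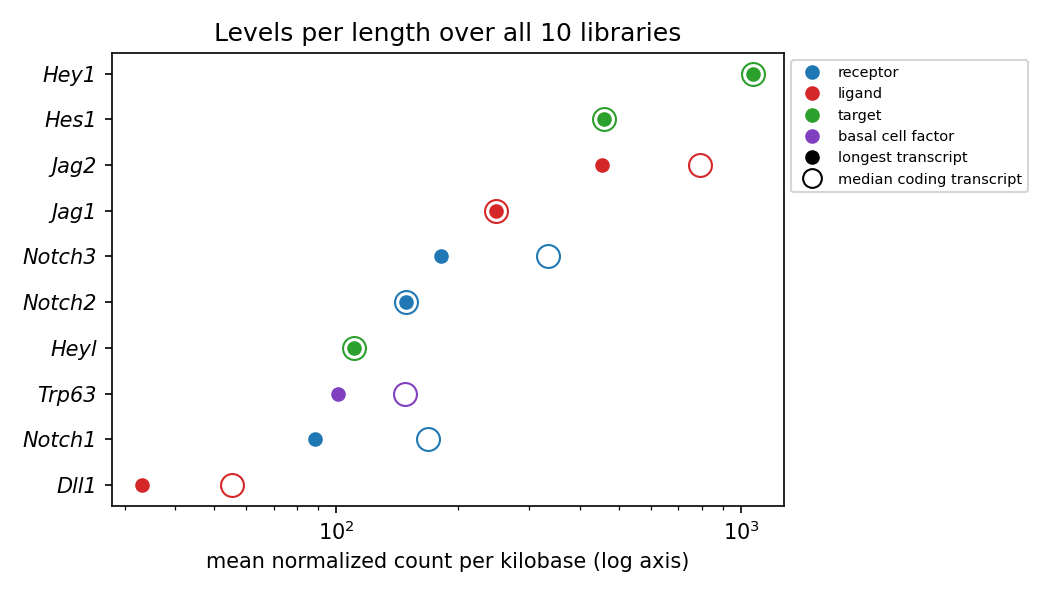
Mean normalized count per kilobase over all 10 libraries (horizontal log axis) for the 10 genes, coloured by role. Filled points use the longest transcript and open rings the median protein-coding transcript. Hey1 is at 1073 and Dll1 at 33.1 on the first scale, and Notch1 and Notch2 change places on the second.

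Of the receptors, Notch1 (chromosome 2, 26457902 to 26503822, GRCm38, protein coding), needed for stem cell fate in many epithelia, had a mean of 841 normalized counts and a log2 fold change of 0.07 ± 0.08 (SE; adjusted p = 0.810, from the authors' deposited table). Notch2 (chromosome 3, 98013538 to 98150367), known for its role in keeping supporting cells, had a mean of 1563 and a log2 fold change of -0.10 ± 0.08 (SE; adjusted p = 0.707, from the authors' deposited table). Notch3 (chromosome 17, 32120820 to 32166896), best known from the smooth muscle and pericytes of vessel walls, had a mean of 1458 and a log2 fold change of -0.03 ± 0.06 (SE; adjusted p = 0.912, from the authors' deposited table). Divided by their errors these folds gave Wald statistics of 0.89, -1.27 and -0.45, Notch1 towards higher and the other two towards lower values.

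The folds that the authors deposited are shrunk towards 0, so they were also brought back to an unshrunken scale, from which approximate levels in each group follow. On that scale Notch1 was at about 813 normalized counts in Apoe3 and 860 in Apoe4, 5.74% higher (95% interval -6.49% to 19.6%). Notch2 was at about 1640 in Apoe3 and 1512 in Apoe4, a difference of -7.77% (95% interval -18.6% to 4.51%). Notch3, at about 1476 and 1445, had the narrowest interval of the receptors, from -10.8% to 7.42%. Each interval gives the range of differences compatible with these libraries, and each includes 0.

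Of the ligands, Jag1 (chromosome 2, 137081451 to 137116520), a ligand with a cysteine-rich domain that Delta ligands lack, had a mean of 1390 normalized counts and a log2 fold change of 0.09 ± 0.10 (SE; adjusted p = 0.815, from the authors' deposited table). Its relative Jag2 (chromosome 12, 112907803 to 112929812) had a mean of 2316 and a log2 fold change of -0.02 ± 0.06 (SE; adjusted p = 0.929, from the authors' deposited table). Dll1 (chromosome 17, 15367354 to 15376932), the Delta ligand of early neuronal progenitors, had a mean of 119 and a log2 fold change of -0.04 ± 0.10 (SE; adjusted p = 0.912, from the authors' deposited table). None of the 3 ligands lay more than 1 standard error from 0.

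Dll1 had the largest standard error of the fold among the members, at 0.099, with Jag1 next at 0.097. Beside genes of similar mean, Jag1 stood highest of the members. The standard error of Jag1 was larger than that of 97.2% of the 2881 tested genes with means within 1.5 times of its own. That of Jag2 was larger than 23.0% of 1964 such genes. On the unshrunken scale Jag1 was at about 1320 normalized counts in Apoe3 and 1437 in Apoe4, 8.81% higher (95% interval -9.88% to 31.4%). Jag2, at about 2341 and 2299, differed by -1.81% (95% interval -10.5% to 7.74%), the value nearest to 0 among the 9 Notch genes. Dll1 was at about 122 and 116, with an interval from -21.8% to 16.6%. For each of the 10 members the shrunken error allows a second solution with stronger shrinkage and a larger fold. On the unshrunken log2 scale it puts Jag1 at 0.28 ± 0.32 (SE) and Dll1 at -0.14 ± 0.30. Hes1 would be at -1.42 ± 0.47 in place of -0.29, and Hey1 at -1.31 ± 0.63 in place of -0.15. Percentages, intervals and group levels given here use the weaker shrinkage, because errors over all genes peak at a mean of about 64, below the mean of each member. Both solutions give the same Wald statistic and p.

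**Figure D2:**
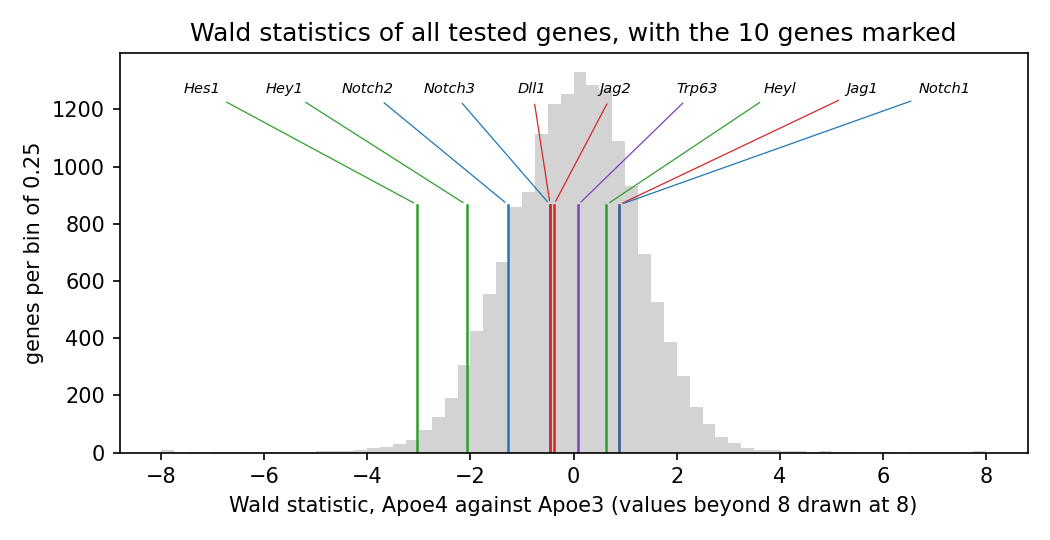
Number of tested genes (vertical axis) by Wald statistic, the log2 fold change divided by its standard error (horizontal axis, negative is lower in Apoe4), with a coloured line at each of the 10 genes. Hes1 at -3.03 and Hey1 at -2.07 lie on the lower side, and the other 8 lie between -1.27 and 0.89.

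Of the target genes, Hes1 (chromosome 16, 30065357 to 30067796), the repressor through which Notch blocks neuronal differentiation, had a mean of 675 normalized counts. The authors' deposited table gives it a log2 fold change of -0.24 ± 0.08 (SE), which did not pass (adjusted p = 0.161, with an unadjusted p of 0.00245 in the authors' DESeq2 test). Its level on the unshrunken scale was about 757 in Apoe3 and 620 in Apoe4, with a 95% interval of -27.9% to -6.78% that is not corrected for the number of genes tested. Of the 16050 genes, 243 had a p at or below that of Hes1 (1.51%).

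Hey1 (chromosome 3, 8663359 to 8667038), a repressor of the Hes-related family that is also known from blood vessels, had a mean of 2599 normalized counts. The authors' deposited table gives it a log2 fold change of -0.13 ± 0.06 (SE; adjusted p = 0.459, with an unadjusted p of 0.0381 in the authors' DESeq2 test). The group levels were about 2759 in Apoe3 and 2493 in Apoe4, with an interval from -17.9% to -0.556% that is also not corrected for the number of genes tested. A p at or below that of Hey1 was found for 1330 of the 16050 genes (8.29%). Heyl (chromosome 4, 123233556 to 123249870), the family member known from smooth muscle, lay on the other side, at a mean of 503 and a log2 fold change of 0.05 ± 0.07 (SE; adjusted p = 0.875, from the authors' deposited table). Its group levels were about 491 and 511, with an interval from -7.74% to 17.1%.

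Trp63 (chromosome 16, 25683763 to 25892088) had a mean of 542 normalized counts and a log2 fold change of 0.01 ± 0.09 (SE; adjusted p = 0.987, from the authors' deposited table), the smallest difference of the 10. Its levels were about 540 in Apoe3 and 544 in Apoe4, with an interval from -14.4% to 18.5%. The gene has 8 protein-coding transcripts in GENCODE vM21, among them forms with and without the transactivation domain, which a count per gene does not tell apart.

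**Figure D3:**
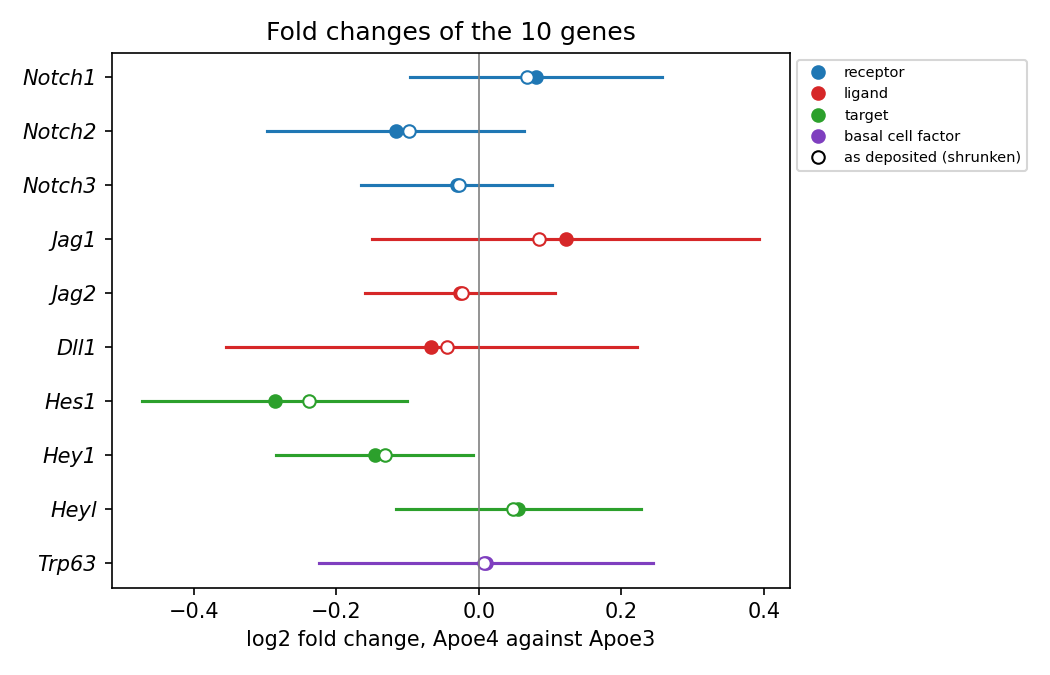
Log2 fold change of Apoe4 against Apoe3 (horizontal axis) for each member. Filled points are on the unshrunken scale, by the weaker of 2 shrinkage solutions, with their 95% intervals as lines, and open points are the folds as deposited. The intervals of Hes1 and Hey1 lie below 0, from -0.47 to -0.10 and from -0.28 to -0.01, and the other 8 cross 0. No interval is corrected for the number of genes tested.

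The 3 other Hes and Hey genes with an adjusted p had negative folds like Hes1 and Hey1, and none passed. Genes are called targets here by family, so Hes6 is among them, while Nrarp is listed with the regulators. Hes5, the target best known from neural progenitors, was at a mean of 57.6 normalized counts and a log2 fold change of -0.17 (adjusted p = 0.574, from the authors' deposited table). Hes6, which opposes Hes1 in neuronal precursors, was at -0.08 and Hey2, a vascular relative of Hey1, at -0.04 (adjusted p = 0.835 and 0.928, from the authors' deposited table). Of the 6 tested Hes and Hey genes, members included, 5 had negative folds and Heyl a positive one. Their median log2 fold change was -0.11, beside 48.9% negative and a median of 0.00 over all tested genes. None of the 6 passed, and 2 had an unadjusted p under 0.05. Hes2, Hes3 and Hes7 had means from 0.175 to 5.86 and carry no adjusted p. Their log2 fold changes were 0.06, -0.01 and -0.02, with an unadjusted p of 0.164, 0.323 and 0.674 in the authors' DESeq2 test.

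Transcript length moved with these values. Over all tested genes with a length, the Wald statistic rose with the length of the longest transcript (rho of 0.415 by Spearman, across 15956 genes that are no independent replicates). Of the 6 tested targets, 5 are shorter than the median of 3341 bases over all tested genes, with 1468 for Hes1, 1273 for Hes5, 1573 for Hes6, 2423 for Hey1 and 2550 for Hey2. Heyl, the target with a positive fold, has 4537. The receptors are longer, with 9488 for Notch1 and 10500 for Notch2. The curve through all genes stood at -0.74 at the length of Hes1 and at 0.63 at that of Notch2. With the curve subtracted, the Wald statistic of Hes1 was -2.29 instead of -3.03 (unadjusted p = 0.0221, adjusted p = 0.515 over all genes with a length). Hey1 was then at -1.75 and Hes5 at -0.84, and Hes6 and Hey2 at -0.10 and -0.13. Notch2 went from -1.27 to -1.90 (unadjusted p = 0.0575) and Notch3 from -0.45 to -1.19. The part of length in the differences of the targets was not tested.

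**Figure D4:**
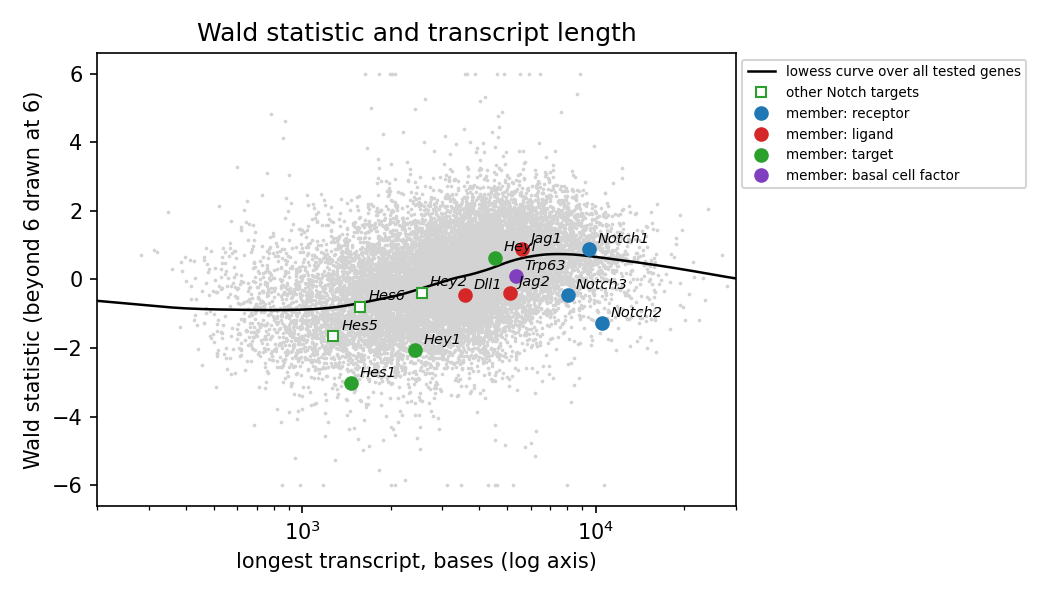
Wald statistic (vertical axis) against the length of the longest transcript in bases (horizontal log axis) for all tested genes in grey, with a lowess curve in black. Filled points are members coloured by role and open squares the other Hes and Hey genes, labelled as Notch targets. Hes1 and Hey1 lie below the curve, and Hes6 and Hey2 on it.

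Other genes of the pathway were read from a list of 62 by role, of which 57 were tested. None passed an adjusted p of 0.05 in the authors' DESeq2 test, and 5 had an unadjusted p under 0.05, 3 higher and 2 lower. That is 8.77% of the 57, near the 10.3% of all tested genes, so the genes named next are described and not singled out as changed. Their median log2 fold change was 0.02, with 34 positive and 23 negative values, ranging from -0.18 to 0.22. The smallest p belonged to Maml3, a coactivator of the Notch complex in the nucleus, at 0.22 (adjusted p = 0.293, from the authors' deposited table). Rbpj, the DNA-binding partner of the receptor fragment, was at 0.01 (adjusted p = 0.977, from the authors' deposited table), and Maml1 and Maml2 at 0.10 and 0.04.

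Of the 9 genes for the proteases that cut the receptor, 3 had an unadjusted p under 0.05 and went in different directions, where 10.3% of all tested genes had such a p. Adam17, a surface protease, was at 0.16 and Aph1b, a scaffold of gamma-secretase, at 0.15 (adjusted p = 0.419 and 0.439, from the authors' deposited table). Psenen, the smallest subunit of gamma-secretase, was at -0.18 (adjusted p = 0.427, from the authors' deposited table). Psenen also has a short transcript, of 708 bases, and Adam17 and Aph1b have 4469 and 5102.

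Among the glycosyltransferases that tune the binding of ligands, Rfng was at -0.14 (adjusted p = 0.477, from the authors' deposited table), Pofut1 at 0.08 and Lfng at -0.04. The ubiquitin ligases that let a ligand pull on its receptor stood at 0.15 for Neurl1b, 0.09 for Mib2 and 0.05 for Mib1. Of the 12 corepressors, which silence the targets where no receptor fragment is bound, Ctbp1 was at -0.11, Ctbp2 at 0.10 and Ncor1 at 0.12, per the authors' deposited table (adjusted p between 0.543 and 0.642). Nrarp, a feedback inhibitor that Notch itself turns on, was at -0.14 (adjusted p = 0.560, from the authors' deposited table), with Dtx3 at -0.15 and Dtx3l at 0.11. The remaining receptor and ligand, Notch4 and Dll4, both known from endothelium, were at -0.01 and 0.11, and the atypical ligands Dlk2 and Dner at -0.10 and 0.04.

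**Figure D5:**
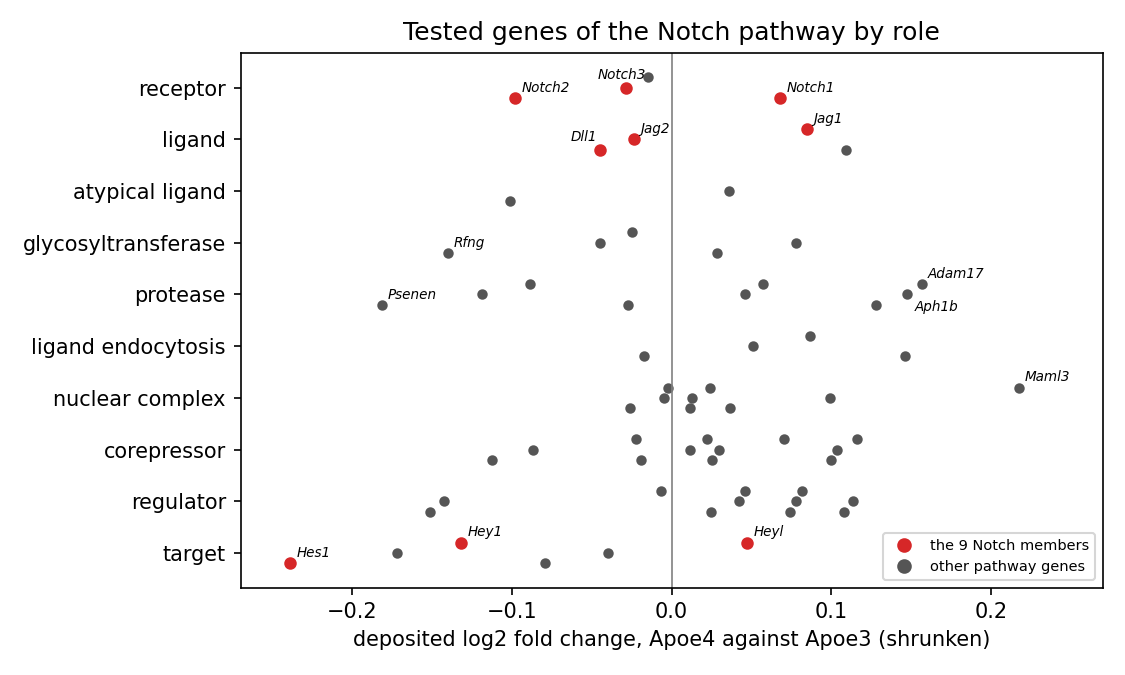
Deposited log2 fold change (horizontal axis) of the tested Notch pathway genes by role (rows). Red points are the 9 Notch members and grey points the other genes, with names for members and for genes at an unadjusted p under 0.05. The 57 grey points run from -0.18 to 0.22, and in the row of targets every gene except Heyl is at -0.04 or lower.

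Markers of the cells that use these genes gave the setting. RNA of a whole tissue cannot tell fewer cells of a type from less RNA per cell. The defining markers of the labelled tissue were high, with Omp of mature olfactory neurons at a mean of 113676 and Cyp2g1 of sustentacular cells at 63585. For Trp63, the 16 horizontal basal cell markers had 0 called, 12 positive and 4 negative folds and a median of 0.09, where 48.9% of all tested genes had negative folds. An unadjusted p under 0.05 was reached by 2 of the 16 (12.5%), near the 10.3% over all genes. These were Col17a1 at 0.24 and Itga6 at 0.21 in the authors' deposited table, both parts of the anchoring of basal cells (adjusted p = 0.278 and 0.329). The summed level of the 16 markers was about 13994 in Apoe3 and 14903 in Apoe4. This sum, like those of the lists below, adds counts not divided by length, so genes with high counts weigh most. Its largest parts were Itgb1 and Dst, at means of 4111 and 3991. Krt5 and Krt14, the keratins that define these cells, were at 0.14 and -0.02 (adjusted p = 0.576 and 0.963, from the authors' deposited table). Of 12 genes known to be controlled by p63, 0 passed, 0 had an unadjusted p under 0.05 and 9 had positive folds (median 0.06). The lowest p among them were those of Lama3 and Fermt1, at 0.18 and 0.16 (adjusted p = 0.495 and 0.631, from the authors' deposited table). Krt14, Itgb4 and Lama3 are in both the p63 list and the horizontal basal cell list, so the summaries of these lists share genes. Transcripts of both lists are long by the median, with 4904 bases for the p63 list and 4062.5 for the horizontal basal cell list, against 3341 over all tested genes. With the length curve subtracted, the Wald statistic of Col17a1 was 2.04 instead of 2.66 and that of Itga6 2.20 instead of 2.50. Krt5, with 2197 bases, rose from 1.65 to 2.08, and Lama3, with 10548, fell from 1.92 to 1.29. None of these passed (adjusted p from 0.547 to 0.870 over all genes with a length).

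For Hes1, the 12 sustentacular markers had 9 negative folds and a median of -0.03. An unadjusted p under 0.05 was reached by 3 of them, each lower, beside 5.76% of all genes as lower, and 1 was called, beside 0.779%. That was Cbr2, a carbonyl reductase, lower at -0.26 (adjusted p = 0.0421, from the authors' deposited table). The call was lost with the length curve subtracted (adjusted p = 0.309 over all genes with a length; the transcript of Cbr2 has 1110 bases), and also with no filter on the mean. Krt18 stood at -0.16 and Cyp2g1 at -0.12 (adjusted p = 0.344 and 0.438, from the authors' deposited table). Transcripts of this list are short, with a median of 1985.5 bases against 3341 over all tested genes. From Wald statistics with the length curve subtracted, the unadjusted p was 0.0885 for Krt18, 0.111 for Cyp2g1 and 0.00618 for Cbr2. The summed level of the 12 markers was about 478096 in Apoe3 and 457757 in Apoe4, and none was at 0. The part of these markers in the value of Hes1 was not tested. For the neuronal progenitors, the 11 reported globose basal cell markers had 0 called, 0 at an unadjusted p under 0.05, 5 positive and 6 negative folds and a median of -0.02. Neurog1, a proneural factor, was at -0.02, per the authors' deposited table. Pax6 and Mki67 had the lowest p of that list, at 0.09 and -0.13 (adjusted p = 0.701 for both, from the authors' deposited table).

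Vessel cells were looked at for Hey1, Heyl and Notch3. The 12 endothelial markers had 0 called, 0 at an unadjusted p under 0.05 and 9 positive folds (median 0.06, summed level about 3124 in Apoe3 and 3241 in Apoe4). Of 12 mural cell markers, 11 were tested, with 0 called and 9 positive folds (median 0.07, about 13591 and 14698), and Mylk was the 1 with an unadjusted p under 0.05, at 0.19 (adjusted p = 0.438, from the authors' deposited table). Both lists had medians above 0. Their transcripts are also longer, with medians of 3758 bases for endothelial and 4096 for mural markers, against 3341 over all tested genes. Heyl was at 0.05, and Hey1 and Notch3 were at -0.13 and -0.03. Markers of multiciliated cells, a fate that Notch opposes in airways, had 0 called of 10, 1 at an unadjusted p under 0.05 (Rsph1, at 0.17), 7 positive folds and a median of 0.06, with Foxj1 at 0.10 (adjusted p = 0.699, per the authors' deposited table). Their part in the values of the members was not tested.

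Exons of 4 members overlap those of another gene in GENCODE vM21. For Notch1 (0610009E02Rik and Gm13568), Notch3 (Gm17276) and Dll1 (A930024N18Rik) the other gene is a noncoding RNA of the opposite strand, and for Notch2 it is Gm42820 on its own strand. None of these partners is a row of the table under that name. The strandedness of the counting is not given in the sources used here, so reads of these partners could not be told apart from those of the 4 genes.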

How the data were processed

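Whole olfactory epithelium of 4 Apoe3 and 6 Apoe4 libraries was measured by paired-end RNA sequencing. The submitters' processing notes name STAR, featureCounts, DESeq2 and GRCm38; no versions or settings were at hand. The authors deposited a mean normalized count per gene (a signal over all 10 libraries: read counts divided by size factors), a log2 fold change and its log2 standard error, a Wald score, a p-value and a Benjamini-Hochberg adjusted p-value, per the file headers. The design assumed counts per library, and for a table without them the authors' own test, which is what was used. The 8314 genes that the authors marked as low (means up to 9.99) carry no adjusted p.

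The score equals the fold divided by its error (largest difference 1.3e-13). The deposited error reaches a ceiling of 0.105, which in a ridge-penalized fit is set by the width of the prior, and so gives each gene's shrinkage factor; the weaker of 2 solutions was used, since errors peak at a mean of about 64. Unshrunken folds, 95% normal intervals and group levels follow from it and are approximate. This step was tested on simulated data with the weaker solution only, with dispersion set by the mean, and folds were scored above a minimum mean. That test cannot tell which of the 2 solutions holds for a given gene. Direction was read from genes with 1 read in 1 library, which fell on 10 mean values: positive folds at 6 of them, negative at 4. Lengths came from GENCODE vM21 (99.4% of tested genes), the length curve was a lowess fit (fraction 0.3, statsmodels 0.14.6, Python 3.11.15), positions from RefSeq GRCm38.p6. The members and lists were chosen with earlier results of these data known, and 1 gene of the globose basal cell list is not reported here. Named genes were all members, up to 3 pathway genes with the smallest p of each role, and up to 2 of each other list described; textbook markers (Rbpj, Krt5, Krt14, Neurog1, Foxj1, Omp, Cyp2g1) were named outside that rule, after their values were seen. Other lists had 1 call each in Bowman gland (Bpifb4, higher) and immature neuron markers (Dpysl3, higher) and 0 in mature neuron, macrophage and microvillar lists (1, 1 and 2 at an unadjusted p under 0.05).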

Additional observations from a re-analysis of the deposited data

How the results depend on the processing

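The settings were no filter on the mean, a minimum mean of 100, no X and Y genes, and the length curve subtracted. In each, 0 of the 10 members and 0 of the other Notch pathway genes passed the adjusted threshold. Undoing the shrinkage leaves every p as it was, so it could not change these counts. Over these settings the adjusted p of Hes1 ran from 0.151 to 0.515. Of these settings only the length curve can turn the direction of a fold, and with it Trp63, alone of the 10, changed sign to -0.045 with the length curve subtracted (adjusted p = 0.971), where its deposited value was 0.01. The genes passing among p63 targets and cell type markers went from 3 to 1 with the length curve subtracted, which ended the calls of Cbr2 and Dpysl3 (adjusted p = 0.309 and 0.144), and from 3 to 2 with no filter on the mean, which left no lower call. Over all genes the count ran from 101 to 125. The ratio of the highest to the lowest level per kilobase was 32.4 with the longest transcript, 21.2 with the median transcript (Jag2 over Trp63) and 19.4 with the median protein-coding transcript (Hey1 over Dll1), a length added after seeing the data because many annotated transcripts are short fragments. No paired analysis was possible because the table holds no values per library; for the same reason other normalizations and leaving out libraries were not run. Depth limits Dll1 most, with a mean of 119.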
